A study of Homo sapiens with 8 samples.

Results

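Expression of 10 genes of the activin, inhibin and follistatin system was followed over the 4 culture conditions of the series, among 19775 genes that the arrays measured. The genes were taken by name: INHBA, INHBB, INHBE and INHA, which encode the chains of activins and inhibins, FST and FSTL3, which encode secreted proteins that trap activins, and the receptor genes ACVR1, ACVR1B, ACVR2A and ACVR2B. They are covered by 22 probe sets that the platform annotation assigns to a single symbol. Each gene is represented by its main probe set, that of highest average over all 8 arrays, and the other probe sets are given beside it.

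The cells were A549, an established human lung adenocarcinoma line, and the groups were 3D treated, 3D control, 2D treated and 2D control, with 2 Affymetrix U133 plus 2.0 arrays in each. The 3D cultures were spheroids formed in hanging drops, and the 2D cultures were monolayers. Treatment was TNF (10 ng/ml) together with TGFβ (2 ng/ml), given in 2 consecutive rounds that lasted 48 h each, and control cultures received vehicle in the same low-serum medium. All groups come from this single line. The methods describe the pairs of arrays as technical duplicates and the deposited design as biological replicates, so p-values measure only the spread between these arrays, and 2 arrays in a group limit the precision of every value.

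Values are GCRMA expression values on the log2 scale, so a difference of 1 is a 2-fold difference. The lowest value on every array was 2.23 and the array medians lay between 2.43 and 2.50. A group is called near background here when both arrays read less than their own medians, and a fold against such a group is then a lower bound computed against the mean of the medians of those arrays. All 6 epithelial markers lay above the array median on all 8 arrays, whereas 1 of 4 endothelial markers (PECAM1, 4.24 to 4.61) did so on every array, and CDH5, VWF and KDR were near background in every group. Of 4 leukocyte markers 1 to 2 lay above the array median: CD14 on all 8 arrays (5.28 to 9.69) and CD79A on all arrays except 2D control replicate 2 (2.28 to 3.59 over all 8), with PTPRC and CD3E near background in every group. Of 3 gonadal markers, from cell types known to make inhibin, FOXL2 lay above the array median on every array (4.15 to 5.33), and FSHR and CYP19A1 were near background in every group. Of 4 alveolar type II markers 2 to 3 lay above the array median, none over 4.21, with SFTPB at 4.12 to 4.21, SFTPC at 2.47 to 2.72 and NKX2-1 near background in every group. In bulk RNA, fewer cells that express a gene and less RNA per cell cannot be told apart.

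Activins are secreted dimers of β chains and belong to the TGFβ superfamily. Activin A is made of INHBA chains and activin B of INHBB chains, while the α chain encoded by INHA pairs with a β chain to form an inhibin, which opposes activin. An activin binds a type II receptor (ACVR2A or ACVR2B), which recruits a type I receptor such as ACVR1B, and the complex phosphorylates SMAD2 and SMAD3, the same carriers that the TGFβ receptors use. Follistatin wraps around activin and blocks its receptor-binding surfaces. In lung, activin A is known for its induction in inflamed and fibrotic tissue.

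Which of these genes responded to TNF and TGFβ in spheroids was asked first. Of the 10 genes, INHBA and FST rose and INHBB and ACVR1B fell (limma, adjusted p under 0.05 over all probe sets). Of all 19775 genes, 5.53% were called higher and 10.8% lower in the same comparison. The median difference of the 10 genes was 0.26 on the log2 scale, beside 0.00 for all genes.

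INHBA, the activin βA chain, gave values of 10.86 and 9.63 in 3D treated cultures, against 2.23 and 2.23 in 3D control cultures. In 2D treated and 2D control cultures all 4 arrays also read 2.23. Only the 3D treated arrays lay above background, and they did not overlap any other group. The mean was 10.24 ± 0.87 in 3D treated cultures and 2.23 ± 0.00 in 3D control cultures (SD, n = 2 each). The log2 difference was 8.01 (SE 0.42, adjusted p = 0.00328). That SE and p-value use a spread shared by all groups, and the groups at the floor have none. They therefore understate the spread between the 3D treated arrays. INHBA was at least 225-fold higher in 3D treated cultures. The bound depends on which treated array is used: leaving out 3D treated replicate 1 gave 147-fold, and leaving out replicate 2 of that group gave 343-fold.

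The other INHBA probe sets had the same pattern at lower brightness. Probe set 210511_s_at read 10.15 and 8.96 in 3D treated cultures and 2.23 on the other 6 arrays, and it was called higher (log2 difference 7.32, adjusted p = 0.0036). Probe set 204926_at read 4.41 and 3.24 in 3D treated cultures, also with 2.23 elsewhere, and its difference of 1.59 did not pass the test (adjusted p = 0.0923). On all 3 probe sets, 3D treated replicate 1 read higher than replicate 2.

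FST, which encodes follistatin, had values of 9.09 and 8.50 in 3D treated cultures and 2.25 and 2.25 in 3D control cultures. The 2D treated arrays read 2.25 and 2.23 and the 2D control arrays 2.25 and 2.25. As for INHBA, only the 3D treated group was above background. Its log2 difference in 3D was 6.55 (SE 0.20, adjusted p = 0.00126), so that FST was at least 82.2-fold higher. Here too the shared spread is lowered by groups at the floor, and the SD of the 3D treated arrays was 0.42. Both other FST probe sets were called in the same direction, with values of 7.71 and 7.03 (204948_s_at) and of 6.41 and 5.65 (207345_at) in 3D treated cultures and values of 2.23 to 2.24 in 3D control cultures.

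**Figure D1:**
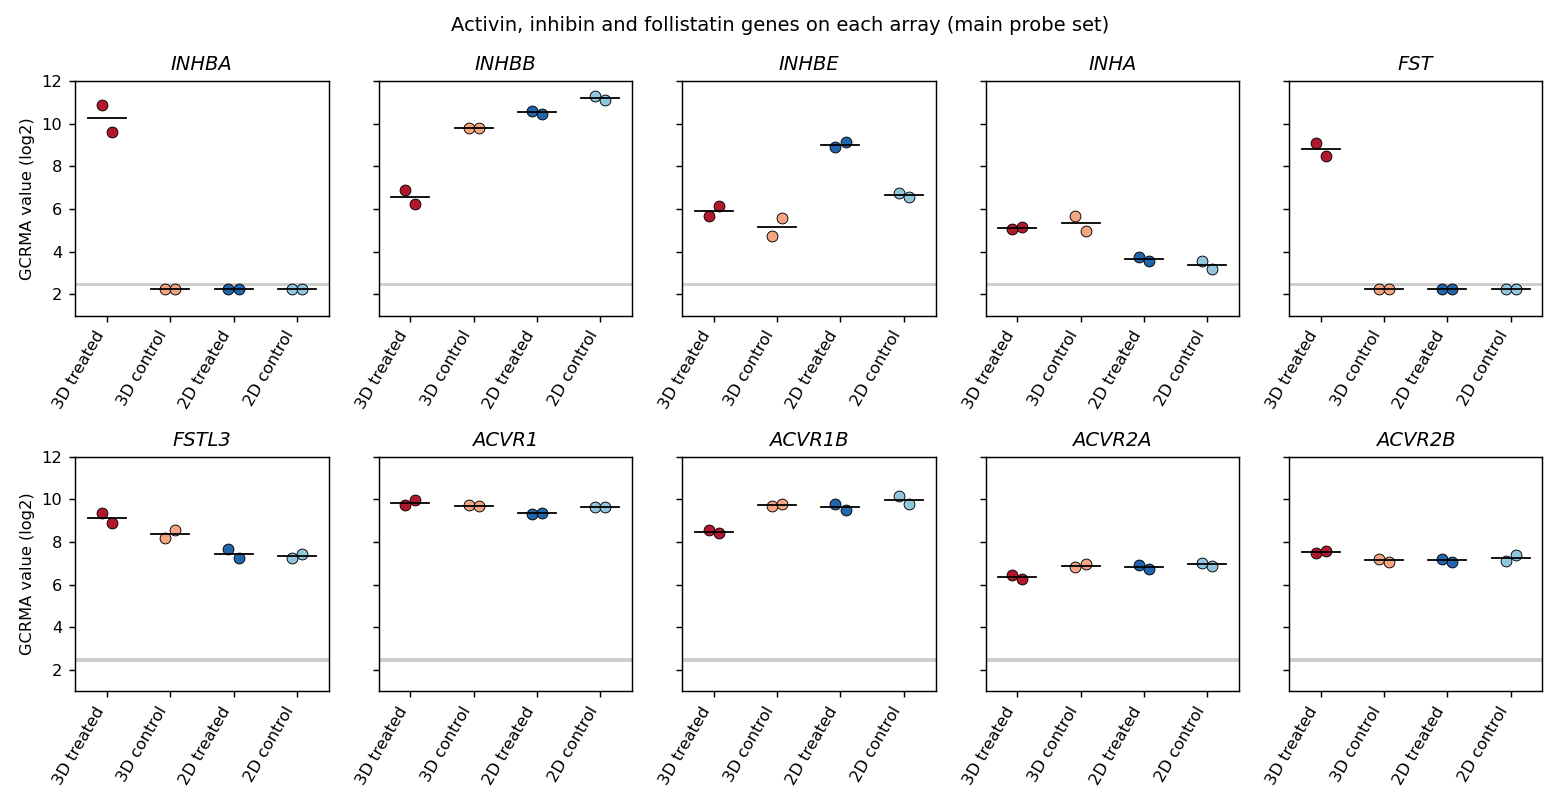
GCRMA values (log2, vertical axis) of the 10 genes on each of the 8 arrays, by group from 3D treated to 2D control. Points are arrays, black lines group means and the grey band the range of array medians, 2.43 to 2.50. INHBA and FST lie above the band only in 3D treated cultures, and INHBB is lowest there.

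Such a pattern was uncommon on these arrays. Among the 19775 genes, 105 (0.531%) were above the array median on both 3D treated arrays and near background in the other 3 groups, and INHBA and FST were the 2 among the 10 genes. The 5 genes most like INHBA by Pearson correlation over the 8 arrays were LCE3D, TIMP3, HS3ST3B1, HAS2 and IL33, out of 4531 genes that varied enough to be compared. Their r was 0.9999 or above, a description that rests on the pair of 3D treated arrays against 6 arrays near the floor. LCE3D, a cornified envelope gene, read 12.86 and 11.40 in 3D treated cultures and 2.32 and 2.32 in 3D control cultures. HAS2, a hyaluronan synthase, read 6.92 and 6.18 in 3D treated cultures and 2.24 and 2.24 in 3D control cultures. The cytokine gene IL33 read 8.84 and 7.76 in 3D treated cultures and 2.24 and 2.24 in 3D control cultures. In each, as in INHBA, 3D treated replicate 1 was the higher array, which choosing genes by this correlation favours.

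INHBB, the activin βB chain, moved the other way. Its values were 6.87 and 6.25 in 3D treated cultures and 9.82 and 9.78 in 3D control cultures. In monolayers they were 10.60 and 10.48 in 2D treated cultures and 11.28 and 11.12 in 2D control cultures. No group overlapped another, and values increased in the order 3D treated, 3D control, 2D treated and 2D control cultures. In 3D the treated cultures were 9.42-fold lower than control (log2 difference −3.24, SE 0.22, adjusted p = 0.0055). Unlike INHBA, INHBB stayed well above the array medians in every group, so this is a measured fold and not a bound.

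The 5 genes whose values followed INHBB most closely over the 8 arrays were FIG4, PDK4, ATG2B, TGFBR3 and NRP1, with r between 0.9968 and 0.9979. These correlations describe 8 arrays in 4 groups that share treatment and culture type. TGFBR3, which encodes betaglycan, a co-receptor known to hold inhibin to type II receptors, read 6.35 and 5.91 in 3D treated cultures and 8.40 and 8.20 in 3D control cultures. PDK4, a kinase that restrains pyruvate dehydrogenase, read 10.10 and 9.35 in 3D treated cultures and 13.18 and 12.99 in 3D control cultures. Both genes had the same order of the 4 groups as INHBB, without overlap between neighbouring groups, which choosing genes by correlation also favours.

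The promoters of these 3 genes are printed because INHBA and FST moved together and INHBB moved against them. RefSeq windows (GRCh38.p14, 250 bases before to 50 after a start) were found for 9 of the 10 genes, 12 windows in all. INHBE had none and was not searched. The 250 bases before the start are shown 5′ to 3′ on the gene's strand. INHBA is chr7:41703091-41703340 on the minus strand, FST is chr5:53480379-53480628 on the plus strand and INHBB is chr2:120345886-120346135 on the plus strand. Capitals mark a match to TGANTCA, the AP-1 motif, on either strand.
INHBA: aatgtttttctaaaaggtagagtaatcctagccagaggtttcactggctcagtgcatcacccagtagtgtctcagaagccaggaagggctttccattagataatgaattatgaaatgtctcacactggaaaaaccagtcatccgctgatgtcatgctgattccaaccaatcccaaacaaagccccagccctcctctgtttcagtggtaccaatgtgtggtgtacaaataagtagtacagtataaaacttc
FST: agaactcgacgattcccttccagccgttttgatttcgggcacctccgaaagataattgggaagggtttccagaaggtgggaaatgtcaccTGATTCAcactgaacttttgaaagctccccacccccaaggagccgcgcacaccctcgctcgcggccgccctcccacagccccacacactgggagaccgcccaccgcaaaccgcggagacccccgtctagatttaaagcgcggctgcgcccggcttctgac
INHBB: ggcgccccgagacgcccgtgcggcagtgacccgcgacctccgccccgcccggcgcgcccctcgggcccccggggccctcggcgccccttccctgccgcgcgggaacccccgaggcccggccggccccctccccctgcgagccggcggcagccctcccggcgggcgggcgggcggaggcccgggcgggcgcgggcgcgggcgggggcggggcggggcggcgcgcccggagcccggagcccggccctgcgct
The FST window holds TGATTCA with its first base at position −160 from the start. The INHBA and INHBB windows hold none of the motifs searched, which were TGANTCA, the SMAD binding element GTCTAGAC and the cAMP response element TGACGTCA, each of which reads the same on both strands apart from the free base, and none of which contains another. Among the other genes with a window, TGANTCA was found in the INHA window (TGAGTCA at −230) and in 1 of 3 ACVR1 windows (TGACTCA at −24). Of all 35116 windows, 7.71% hold TGANTCA, 0.202% hold GTCTAGAC and 1.85% hold TGACGTCA. The windows also differ in composition. The INHBA window is 43.3% G and C with 1 CG dinucleotide, where 4.0% of windows have fewer, whereas FST has 63.7% and 32 and INHBB has 88.7% and 58. A match, or its absence, is a description of these letters only.

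Of the remaining ligand chains, INHBE encodes the βE chain of activin E, which is known mainly from liver. Its values were 5.68 and 6.14 in 3D treated cultures and 4.75 and 5.57 in 3D control cultures. The groups did not overlap, but the difference of 0.75 did not pass the test (SE 0.34, adjusted p = 0.345). INHA, the inhibin α chain, read 5.05 and 5.16 in 3D treated cultures and 5.68 and 4.97 in 3D control cultures, and those ranges overlapped (log2 difference −0.22, adjusted p = 0.942). Its sign turned to 0.14 without 3D control replicate 1.

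FSTL3, which encodes a follistatin-like protein that also binds activin, read 9.38 and 8.88 in 3D treated cultures and 8.18 and 8.55 in 3D control cultures. All treated arrays were above the control arrays in 3D, with a difference of 0.77 that did not pass the test (SE 0.26, adjusted p = 0.193). The 95% interval of that single difference, before adjustment, was 0.06 to 1.47.

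Among the receptors, ACVR1B, the type I receptor gene for activin, read 8.54 and 8.42 in 3D treated cultures and 9.68 and 9.76 in 3D control cultures. It was 2.36-fold lower in the treated spheroids, and the groups lay apart (log2 difference −1.24, SE 0.18, adjusted p = 0.0235). This call ended when any 1 of the 3D arrays was left out, with adjusted p of 0.059 to 0.105. The other 5 ACVR1B probe sets were dim, with no value above 4.28, and 205209_at, the brightest of them in 3D control cultures, differed by −1.22 without passing the test (adjusted p = 0.058).

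ACVR1, a type I receptor gene known mainly for BMP signalling, read 9.73 and 9.97 in 3D treated cultures and 9.75 and 9.67 in 3D control cultures, and the ranges overlapped. ACVR2A, a type II receptor gene, read 6.44 and 6.27 in 3D treated cultures and 6.83 and 6.97 in 3D control cultures. Its difference of −0.54 missed the threshold (adjusted p = 0.0608) with a 95% interval of −0.85 to −0.24 before adjustment. ACVR2B, the other type II receptor gene, read 7.50 and 7.56 in 3D treated cultures and 7.22 and 7.08 in 3D control cultures (log2 difference 0.38, adjusted p = 0.14). Thus on the main probe sets the treated arrays were below control for ACVR2A and above it for ACVR2B, and neither difference passed the test. The second ACVR2A probe set, 228416_at, read 5.40 and 4.87 in 3D treated cultures and 5.16 and 5.73 in 3D control cultures. Those ranges overlapped (log2 difference −0.30, adjusted p = 0.688). The ACVR2B probe set 220028_at differed by 0.75 (adjusted p = 0.0986), and the remaining one, 1559548_at, had the same value of 2.46 on every array.

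**Figure D2:**
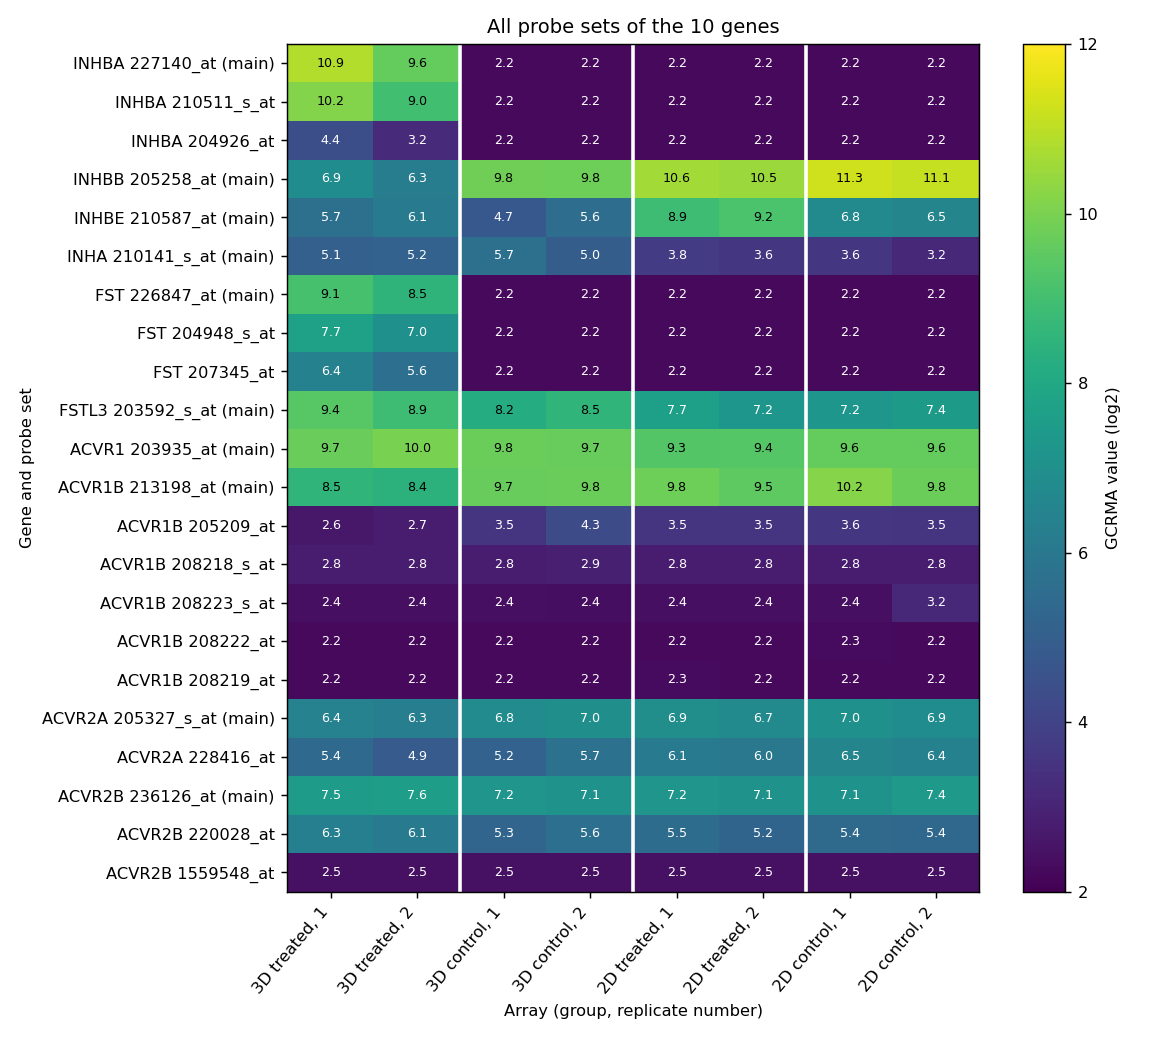
GCRMA values (log2, colour and printed number) of all 22 probe sets in rows on the 8 arrays in columns, with groups separated by white lines. The 3 probe sets of INHBA and the 3 of FST are above 3 only in the 3D treated columns, and 5 of the 6 ACVR1B probe sets are dim on every array.

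When the fit used only the 4 arrays of the 3D comparison, FST alone of the 10 genes was called (adjusted p = 0.0486), and INHBA, INHBB and ACVR1B had adjusted p of 0.071, 0.0862 and 0.0591 at the same differences. Epithelial markers moved in the same comparison. KRT8, KRT18, EPCAM and CDH1 fell among the 6 epithelial markers. KRT7 went the other way, with 12.44 and 12.05 in 3D treated cultures and 11.25 and 11.42 in 3D control cultures. Its difference of 0.91 did not pass the test (adjusted p = 0.0592), nor did that of −0.74 for KRT19 (adjusted p = 0.0638). The summed log2 level of the 6 was 65.6 and 65.9 in 3D treated cultures and 70.1 and 70.5 in 3D control cultures. The 7 fibroblast markers did not pass the test, 2 to 3 of them were above the array median in 3D treated cultures and 1 to 3 in 3D control cultures, and their summed level was 22.0 to 25.3 in 3D treated cultures and 20.8 to 22.3 in 3D control cultures. PDGFRB, COL1A2 and DCN were near background in every group. Of 4 leukocyte markers CD14, which also occurs outside leukocytes, fell, with 6.05 and 5.28 in 3D treated cultures and 8.68 and 8.36 in 3D control cultures (adjusted p = 0.0477). The part of these markers in the changes of the activin genes was not tested.

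In monolayers the same treatment gave no call among the 10 genes in limma, and 3 of them, INHBB, INHBE and ACVR1, had an unadjusted p under 0.05, as did 10.7% of all genes. Few genes of any kind were called in 2D, 0.121% higher and 0.0759% lower. The largest of the 10 differences was that of INHBE, with 8.89 and 9.16 in 2D treated cultures and 6.77 and 6.54 in 2D control cultures. The INHBE ranges lay well apart, and the treated cultures were 5.16-fold higher at a log2 difference of 2.37 (SE 0.34) that missed the threshold over all probe sets (adjusted p = 0.153). With dim probe sets left out of the fit INHBE passed it (adjusted p = 0.0414), and over all alternatives the adjusted p ran up to 0.32.

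INHBB was 0.66 lower on the log2 scale in 2D treated than in 2D control cultures, without overlap and without passing the test (adjusted p = 0.559, 95% interval before adjustment −1.26 to −0.06). INHBA and FST were near background in both 2D groups, so no fold is given. For ACVR1B the 2D treated arrays read 9.80 and 9.52 and the 2D control arrays 10.17 and 9.77, which overlapped. ACVR1 read 9.34 and 9.36 in 2D treated cultures and 9.64 and 9.63 in 2D control cultures, apart but with a difference of −0.29 (adjusted p = 0.474).

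On their main probe sets the other genes overlapped or met between 2D treated and 2D control cultures. INHA read 3.76 and 3.57 in 2D treated cultures and 3.57 and 3.17 in 2D control cultures. FSTL3 read 7.65 and 7.24 in 2D treated cultures and 7.25 and 7.45 in 2D control cultures. Both type II receptor genes were nearly level on these probe sets, with ACVR2A at 6.93 and 6.73 in 2D treated cultures and 7.03 and 6.87 in 2D control cultures. ACVR2B was at 7.20 and 7.08 in 2D treated cultures and at 7.12 and 7.39 in 2D control cultures. ACVR2A probe set 228416_at read 6.15 and 6.01 in 2D treated cultures and 6.55 and 6.40 in 2D control cultures. Those ranges lay apart, with a log2 difference of −0.39 that did not pass the test (adjusted p = 0.92). The median of the 10 differences in 2D was −0.06, beside 0.00 for all genes.

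**Figure D3:**
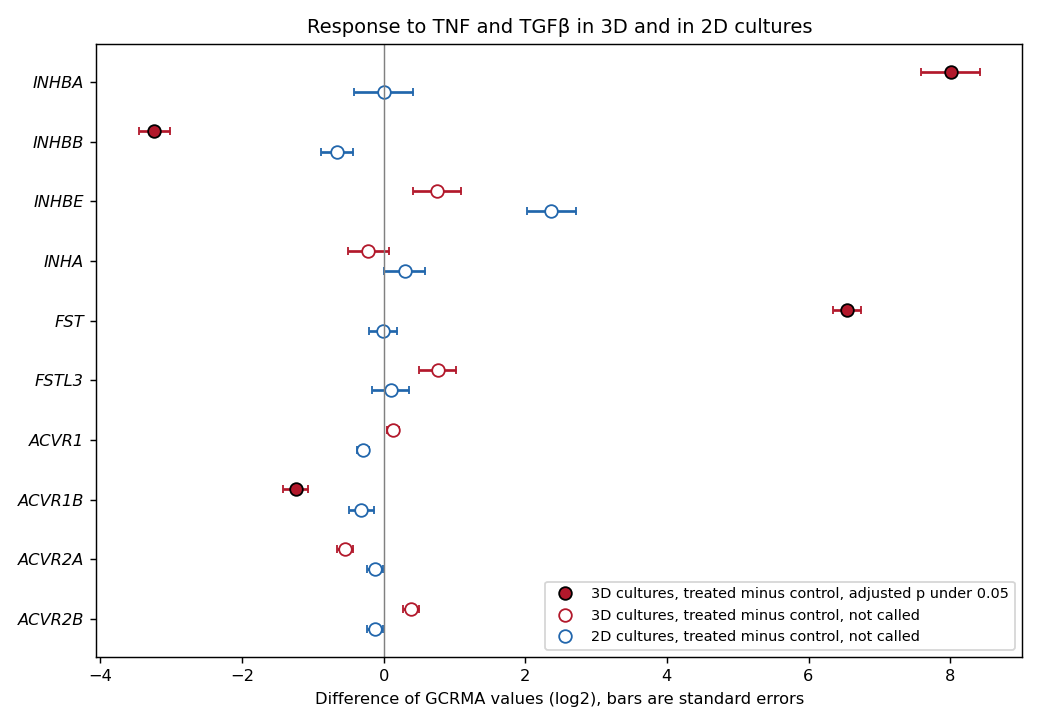
Difference between treated and control cultures (log2, horizontal axis, bars are standard errors of the fit shared by all groups) for each gene, in 3D in red above and in 2D in blue. Filled points passed the test. INHBA at 8.01, FST at 6.55, INHBB at −3.24 and ACVR1B at −1.24 did so in 3D, and none did in 2D.

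Whether the response differed between culture types was tested directly, as the 3D response minus the 2D response. INHBA and FST were called higher and INHBB lower, beside 1.32% of all genes called higher and 1.94% lower. The difference between responses was 8.01 for INHBA (SE 0.59, adjusted p = 0.0157) and 6.55 for FST (adjusted p = 0.00567). For both genes these differences are taken against values at or near the floor, and are not measured folds. The shared spread again includes groups at the floor, so it understates that of the 3D treated arrays. INHBB responded more strongly downward in 3D, by −2.58 (adjusted p = 0.0439), a call that ended when any 1 of the 3D control, 2D treated or 2D control arrays was left out (adjusted p of 0.0781 to 0.109).

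The remaining 7 genes did not pass this test. INHBE, which had its larger difference in 2D, gave −1.61 (adjusted p = 0.216), with a 95% interval before adjustment of −2.91 to −0.32. ACVR1B gave −0.93, ACVR1 0.43, ACVR2A −0.42 and ACVR2B 0.50. The median over the 10 genes was 0.00, as it was for all genes.

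Spheroids and monolayers were also compared without treatment. INHA was higher and INHBB lower in 3D control cultures, 1 gene in each direction, beside 5.77% of all genes called higher and 4.9% lower. INHA read 5.68 and 4.97 in 3D control cultures and 3.57 and 3.17 in 2D control cultures, without overlap. This was 3.88-fold (log2 difference 1.95, SE 0.29, adjusted p = 0.0359).

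INHBB was 2.64-fold lower in 3D control than in 2D control cultures (log2 difference −1.40, adjusted p = 0.0411). Its values, given above, lay apart in the 4 groups. Neither call held in most fits without 1 array: that of INHA held only without 3D control replicate 2 and that of INHBB only without either 3D treated array. With the other arrays left out, adjusted p was 0.0601 to 0.125 for INHA and 0.0956 to 0.157 for INHBB.

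FSTL3 read 8.18 and 8.55 in 3D control cultures and 7.25 and 7.45 in 2D control cultures, a difference of 1.02 that did not pass the test (adjusted p = 0.115). INHBE was lower in 3D control cultures by 1.50 on the log2 scale, also without passing it (adjusted p = 0.088). The 4 receptor genes differed by −0.25 to 0.08 in this comparison, on their main probe sets, and did not pass the test. The second ACVR2A probe set, 228416_at, differed more, with 5.16 and 5.73 in 3D control cultures and 6.55 and 6.40 in 2D control cultures, a log2 difference of −1.03 that did not pass the test either (adjusted p = 0.123).

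Between treated spheroids and treated monolayers, 8 of the 10 genes were called, 5 higher in 3D and 3 lower. This comparison also had the most calls among all genes, 9.06% higher and 14.5% lower. INHBA and FST were higher by at least 225-fold and at least 82.2-fold, as the 2D treated group is near background for both. INHBB was 15.8-fold lower (log2 difference −3.98, adjusted p = 0.00282). INHBE read 5.68 and 6.14 in 3D treated cultures and 8.89 and 9.16 in 2D treated cultures, 8.65-fold lower in 3D (log2 difference −3.11, adjusted p = 0.00941).

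INHA was 2.71-fold higher in the treated spheroids (5.05 and 5.16, against 3.76 and 3.57 in 2D treated cultures, adjusted p = 0.0406). FSTL3 was 3.22-fold higher (9.38 and 8.88, against 7.65 and 7.24 in 2D treated cultures, adjusted p = 0.0211). Its neighbouring groups in the order of levels lay apart except for the 2D groups, which overlapped. ACVR1 was higher by 0.50 on the log2 scale (adjusted p = 0.0284), and ACVR1B was lower by 1.17 (log2 difference −1.17, adjusted p = 0.0191). ACVR2A and ACVR2B were not called.

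The calls of INHA, FSTL3, ACVR1 and ACVR1B each ended in 6 or 7 of the 8 fits without 1 array, and that of INHBE ended without 2D treated replicate 2 (adjusted p = 0.0519). With only the 4 treated arrays in the fit none of the 10 genes was called, where FST had an adjusted p of 0.0525. A measure of RNA quality also moved with culture type: the 3′ minus 5′ value of the ACTB control probe sets was 0.98 to 1.27 in 3D cultures and 1.36 to 1.46 in 2D cultures, while that of GAPDH lay between −0.12 and −0.03 on all arrays. Its part in the differences between 3D and 2D was not tested.

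Other genes of the TGFβ superfamily pathways were counted in the 3D response beside the same backgrounds. Of 14 other ligands measured, BMP2, BMP6 and BMP7 rose and BMP4 fell. BMP6 read 8.99 and 8.85 in 3D treated cultures and 2.94 and 3.20 in 3D control cultures (log2 difference 5.85, adjusted p = 0.00203). BMP2 rose by 3.63 and BMP7 by 2.32 on the log2 scale, and BMP4 fell by 2.30. These bone morphogenetic proteins share the type II receptors ACVR2A and ACVR2B with activins.

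Of 11 other receptors and co-receptors, TGFBR1 rose and TGFBR2 and TGFBR3 fell. TGFBR1, the type I receptor of TGFβ, read 12.68 and 12.43 in 3D treated cultures and 10.38 and 10.23 in 3D control cultures, a log2 difference of 2.25 (adjusted p = 0.00341). TGFBR2, the type II receptor, fell by 2.13 and TGFBR3 by 2.17. ACVR1C, another type I receptor for activin and nodal, was near background in every group.

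Of 10 other antagonists, FSTL1, a secreted protein of the follistatin family, rose by 3.10 on the log2 scale and BAMBI, a membrane decoy receptor, by 1.48. Another 6 of these antagonists, NOG, GREM1, CHRD, CER1, FSTL5 and WFIKKN2, were near background in every group. Among 4 proprotein convertases, the enzymes that cut such ligands from their precursors, FURIN rose by 0.98 (adjusted p = 0.0108) and the other 3 were not called.

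Of 16 intracellular carriers and brakes, 4 rose and 12 were not called. PMEPA1 (2.11), SMAD7 (1.98), SKIL (1.74) and SMURF1 (0.84) rose, by these log2 differences. All are known to restrain TGFβ signalling. SMAD7, the inhibitory SMAD, read 8.24 and 8.13 in 3D treated cultures and 5.97 and 6.44 in 3D control cultures (adjusted p = 0.0116). The carriers themselves were not called in 3D, with differences of 0.08 for SMAD2, 0.30 for SMAD3 and 0.25 for SMAD4. SMAD2 was lower in 3D than in 2D, by −1.19 between control cultures (adjusted p = 0.0059) and −1.25 between treated cultures (adjusted p = 0.00198).

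Of 13 genes known to respond to SMAD2 and SMAD3, 8 rose and 5 were not called on their main probe sets, with a median difference of 1.71. COL1A1 is among those not called, although the paper reports it as higher on the probe set of largest change. The largest differences among the 8 called were PDGFB, a growth factor chain, at 6.79, TIMP3, a metalloproteinase inhibitor, at 5.73, HMGA2, a chromatin protein, at 2.99 and ANGPTL4, a secreted lipase inhibitor, at 1.84. PDGFB (2.24 and 2.24) and TIMP3 (2.38 and 2.38) were near background in 3D control cultures, so their differences are not measured folds. TGFβ was itself added to these cultures, and the shares of the added ligand and of any activin made by the cells cannot be told apart. In 2D none of the 68 genes of these 6 lists was called in limma, and 16 had an unadjusted p under 0.05, beside 10.7% of all genes.

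**Figure D4:**
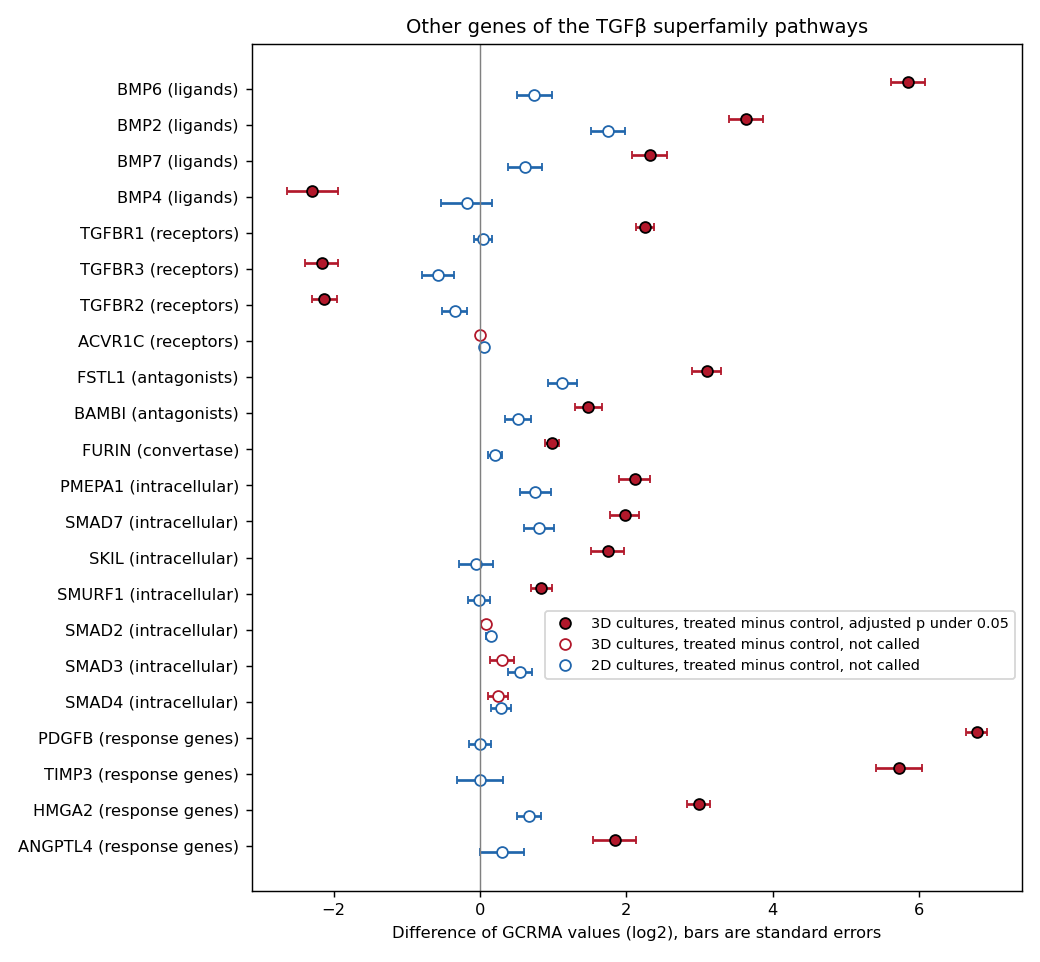
Difference between treated and control cultures (log2, horizontal axis, bars are standard errors of the fit shared by all groups) for the named genes of 6 pathway lists, in 3D in red above and in 2D in blue. Filled points passed the test. Of the genes plotted, 18 passed in 3D, of which BMP4, TGFBR2 and TGFBR3 fell, and none passed in 2D.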

How the data were processed

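RNA of A549 cultures was hybridised to 8 Affymetrix U133 plus 2.0 arrays, 2 for each of 4 groups, and groups were taken from the sample titles. The authors deposited log2 values from GCRMA, a method that removes background and summarizes the normalized probes, and these were used as they are. Per the labels, the authors used limma 3.6.9; a version of GCRMA is not given in the sources used here. Of 54675 probe sets, 62 Affymetrix controls were left out. Of the 54613 tested, 41091 name 1 gene, 1801 several and 11721 none in the platform annotation used.

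A linear model of 4 group means over all 8 arrays was fitted in R 4.3.3 by limma 3.58.1 with empirical Bayes moderation (4 residual degrees of freedom, prior 0.347). P-values were adjusted by Benjamini-Hochberg across every tested probe set, and a call is an adjusted p under 0.05. The 5 comparisons were treated with control in 3D and in 2D, the difference between these responses, and 3D with 2D in control and in treated cultures. They share groups, so they are not independent. The fit was tested on simulated data.

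Alternatives were replicate number as a block, a mean-dependent variance trend, quantile normalization, centring on array medians, removal of probe sets above the median on fewer than 2 arrays, the probe set with the largest 3D change, only the groups compared, and each array left out in turn. Without 1 array its partner stands alone, and its spread is taken from the remaining groups.

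The 10 genes, the 6 pathway lists and the marker lists were chosen with earlier results of these data known. Named genes are the 10, up to 4 called genes of each list with the largest 3D differences, SMAD2, SMAD3, SMAD4, SMAD7 and ACVR1C, and the 5 genes most like INHBA and INHBB. Marker genes were named outside this rule. Promoter windows came from RefSeq (GRCh38.p14) and were searched on both strands. The plots used matplotlib 3.10.9 (Python 3.11.15).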

Additional observations from a re-analysis of the deposited data

Results flagged for a closer look

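For 3 genes the difference between the responses of spheroids and monolayers to TNF and TGFβ passed the test, and only the FST call was kept under every alternative run. With replicate number as a block, limma called neither INHBA (adjusted p = 0.0505) nor INHBB (adjusted p = 0.0705). The INHBB call also ended in each fit without a 3D control, 2D treated or 2D control array. The 3D response exceeded the 2D response by 8.01 on the log2 scale for INHBA and by 6.55 for FST. Both genes were near background in 2D treated, 3D control and 2D control cultures. These are therefore differences of GCRMA values taken against the floor, and not measured folds. For INHBB the difference between responses was −2.58, with a fall of 3.24 on the log2 scale in 3D and a difference of −0.66 in 2D that did not pass the test.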

How the results depend on the processing

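FST was called in the 3D response and in the difference between responses under every alternative run, whereas other calls were lost under some. For FST and INHBA, fits without a 3D treated array take their spread almost only from arrays near the floor. Those fits cannot test these calls. The FST difference in 3D was then 6.25 or 6.84. In the 3D response 4 of the 10 genes were called, against 1 with only the groups compared. In the 2D response none was called, against 1 with dim probe sets left out. In the difference between responses 3 were called, against 1 with the replicate block (paired fit), where INHBA had an adjusted p of 0.0505 and INHBB of 0.0705. Between 3D and 2D control cultures 2 were called, against 0 with the replicate block, 4 with dim probe sets left out, 0 with only the groups compared and 0 to 1 with 1 array left out. Between 3D and 2D treated cultures 8 were called, against 0 with only the groups compared, which has fewer arrays, and 3 to 6 with 1 array left out; the replicate block gave 6, without FSTL3 and ACVR1. Same-numbered arrays deviated together only between the 2D groups (r = 0.283 over 28188 probe sets, −0.015 to 0.09 elsewhere), so the numbers were not taken as pairs, and the block changed no other call among the 10 genes. The cause of the other changes was not tested.

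Of 680 values of single genes under the alternatives, 592 kept direction and side of the threshold, 68 lost the call, 11 gained it and 9 turned sign. None of those 9 had been called. They were INHA in the 3D response (−0.57 to 0.14 with 1 array left out), FSTL3 in the 2D response (−0.11 to 0.31), ACVR2B in the 2D response (−0.25 to 0.019), ACVR2A between control cultures (−0.14 to 0.025, and 0.046 with quantile normalization) and ACVR2B between control cultures (−0.24 to 0.031, and 0.045 with the probe set of the largest 3D change). Over all 19775 genes the number called ran from 529 to 4221 in the 3D response (3235 reported), 6 to 472 in the 2D response (39), 226 to 2262 in the difference between responses (645), 254 to 2863 between control cultures (2110) and 338 to 5429 between treated cultures (4667). With dim probe sets left out 12661 genes were tested, and in the same order 4958, 232, 2114, 3969 and 6260 were called. Signal limits INHBA and FST outside 3D treated cultures, where they can be given only as bounds.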
